A study of Arabidopsis thaliana with 6 samples.

Results

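The fatty acid biosynthesis genes described here are 56 of the 25964 loci that had a read in flower buds of Arabidopsis thaliana. They are the loci that the deposited tables annotate with the Gene Ontology process of fatty acid biosynthesis (81 loci), after 17 loci with descriptions of cytochromes P450, lipoxygenases and other jasmonate enzymes and 8 loci of wax and very-long-chain lipid synthesis, such as CER1, had been set aside. Buds of atcep1 plants, which carry a mutation of a papain-like cysteine protease gene, were compared with buds of wild-type (WT) plants of the same Columbia background. Both genotypes were grown on soil under the same light regime. Whole buds were grouped by the stage of their anthers into 3 classes. Stage A buds had anthers at stages 5 to 6, those of stage B had reached 7 to 9, and those of stage C 10 to 11, and 1 RNA-seq library was made for each genotype and stage. The mutant allele is not described further in the labels, and nothing there says how many plants went into a library or that libraries came from separate plants. Whole buds hold sepals, petals and carpels as well as anthers, so fewer cells of a type and less RNA per cell cannot be told apart in these values.

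Plants make fatty acids in the plastid. Acetyl-CoA from pyruvate is carboxylated to malonyl-CoA, and a set of separate synthase enzymes lengthens the chain while it is bound to acyl carrier protein. Soluble desaturases and thioesterases then shape and release the chains, which are activated to CoA esters at the plastid envelope or on other membranes. In the epidermis these esters are lengthened by 3-ketoacyl-CoA synthases for waxes, or attached to glycerol by acyltransferases for cutin, the polyester of the cuticle. Petals, sepals and anthers are all covered by such a cuticle, and the inner side of the anther also makes lipids for the pollen wall and coat.

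The annotation covers only part of this pathway. Of 64 loci on lists of the core steps and of related mitochondrial, cytosolic and regulatory genes, 11 were members. A further 45 members were on none of these lists. By their descriptions, 10 members act in condensation, acyl-ACP activation or desaturation, 5 in acetyl-CoA and malonyl-CoA supply, 5 in lipoate synthesis or transfer, 7 are 3-ketoacyl-CoA synthase loci, 7 make acyl-CoA or attach acyl groups to glycerol or to cutin precursors, 8 belong to wax synthesis and its regulators, and 7 are caleosins, lipases or enzymes of oxylipins. The other 7 have no clear place in fatty acid synthesis, such as the protein degradation gene PRT6, the vitamin E gene VTE2 and the protein kinase gene OST1. Plastid ketoacyl-ACP synthase I, enoyl-ACP reductase and the plastid acyl carrier proteins were not members. The members are therefore mostly genes of desaturation and surface lipids, and the core pathway is described from its own lists further on.

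Levels are given as RPKM, the reads per kilobase of transcript model scaled to library size, and were summed over the models of a locus. The libraries held between 4037584 and 4411953 reads, and 3 reads on a model of 1 kilobase correspond to between 0.680 and 0.743 RPKM. A total of 46 members had a read in all 6 libraries. After the filter on low counts 42 of the 56 members could be tested, and the 14 others had at most 17 reads in any library. Reads were counted only where they were unique to a transcript model, so that loci with several isoforms may be counted too low; 28 members have several transcripts in RefSeq and 27 have 1.

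Across the 3 stages, 21 of the 42 tested members were higher in atcep1 buds and 2 were lower, with 19 not passing the test (edgeR quasi-likelihood test with stage as a term, Benjamini-Hochberg adjusted p below 0.05). That is 50% of the tested members higher, beside a background of 16.0% of all 16114 genes tested, and 4.76% lower, beside a background of 11.5%. The median log2 fold change of the tested members was 0.45, against -0.0028 over all genes, and 35 of the 42 values were above 0. In 15 tested members each of the 3 atcep1 libraries exceeded each of the 3 WT libraries in RPKM, and in 2 each was below. The background was 13.6% of genes above and 18.7% below. Of the 21 higher members, 20 exceeded WT at each of the 3 stages, KCS16 being the exception at stage A. With DESeq2 in place of edgeR, 13 members were higher and 0 lower, beside backgrounds of 9.63% and 4.54% of all genes by that tool. At an unadjusted DESeq2 p below 0.05, 18 members were higher and 1 lower, beside 15.3% and 9.4%. The RPKM of all 56 members summed to 1879, 1918 and 2169 in atcep1 stages A, B and C and to 1283, 1404 and 1289 in WT stages A, B and C.

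**Figure D1:**
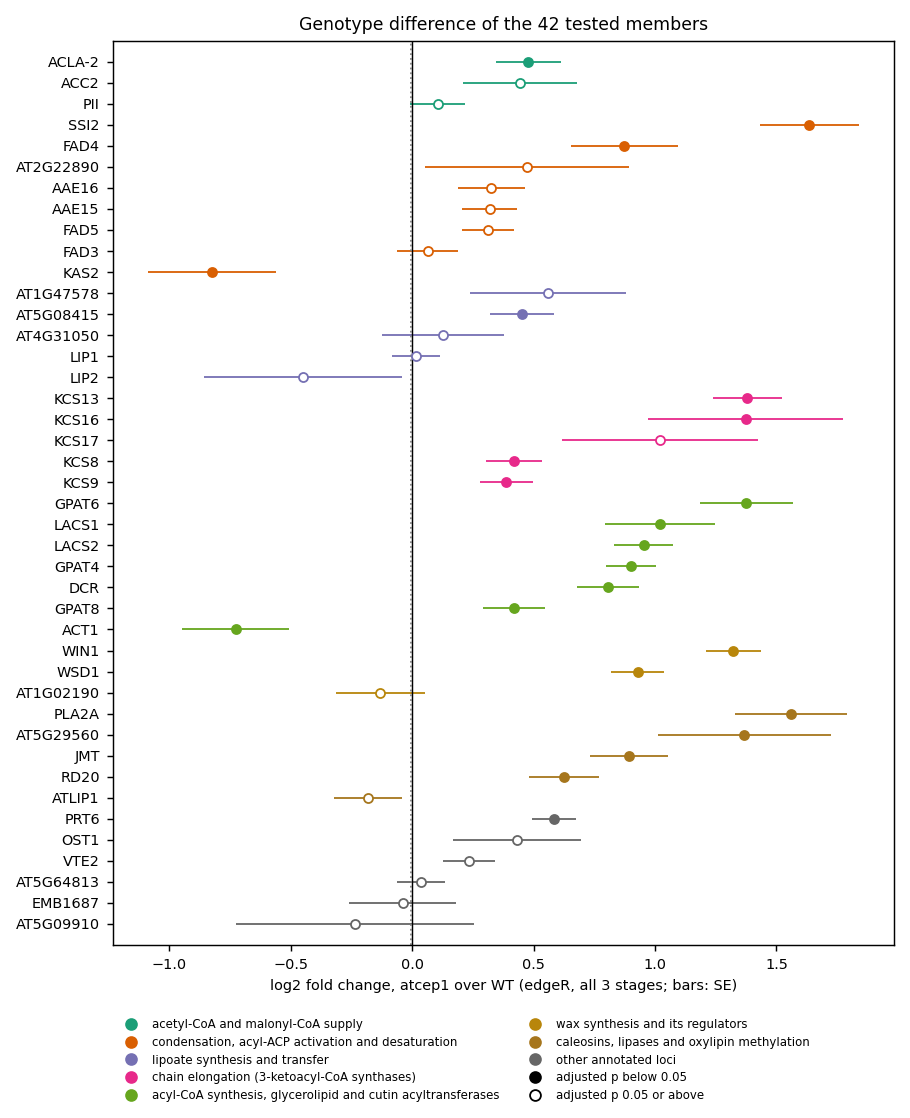
Log2 fold change of atcep1 over WT for each of the 42 tested members, with bars of 1 SE and colours for the roles; filled points passed an adjusted p of 0.05 and the dotted line is the median of all genes. The cutin acyltransferase and acyl-CoA synthetase genes lie to the right of 0 except for ACT1, while 5 of the 8 tested genes of condensation and desaturation did not pass.

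Each genotype and stage has 1 library. A gene's own error therefore comes from the disagreement of the stages about the genotype difference, with 2 residual degrees of freedom. The edgeR test moves this error towards values estimated over all genes, so its p-values rest on both. The SE given was derived from the log2 fold change and the F statistic of this test. Of the 23 calls, 12 were also made when the libraries of any 1 stage were left out, and all 12 were of members higher in atcep1. They are GPAT4, GPAT6, LACS1, LACS2, DCR, WIN1, WSD1, KCS13, SSI2, PLA2A, JMT and PRT6. Both lower calls were lost when at least 1 stage was left out. Fits without a stage have fewer residual degrees of freedom, so their p-values rest more on the error shared over genes. Those p-values cannot be ranked against the p-values of the main fit. When 1 library is left out, the other library of its stage no longer bears on the genotype difference. Such a fit therefore compares the same libraries as the fit without that stage. The fits can differ only through the error shared over genes, the scaling and the filter on low counts. Calls lost without a library are thus no further check beside those lost without its stage.

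Transcripts of other parts of the bud also differed between the genotypes, and their part in the results below was not tested. Of 12 marker genes of the tapetum, the anther layer that nourishes pollen, 10 of the 11 tested were higher in atcep1 and the last did not pass. Their RPKM summed to 2166, 1377 and 305 in atcep1 stages A, B and C, against 701, 342 and 50.2 in WT. The early tapetal regulator DYT1, not tested, had 11, 1 and 0 reads in atcep1 and 22, 3 and 1 reads in WT. ATMYB35, the tested marker that did not pass, had 47, 36 and 3 reads in atcep1 and 100, 18 and 2 reads in WT. At stage A both were lower in atcep1, unlike the 10 that were called higher. The 11 markers other than DYT1 were read in all libraries. Of 13 pollen markers 8 were higher and 5 did not pass, and 10 of the 13 log2 fold changes were above 0. CPK24 and STP11, which did not pass, had -0.93 and -0.67 and were at least 2-fold lower in atcep1 at stage B. The pollen markers summed to 143, 893 and 2526 RPKM in atcep1 and 27.7, 601 and 1620 RPKM in WT. Much of this was VGD1, with 70.1, 477 and 1253 RPKM in atcep1 and 8.83, 278 and 719 RPKM in WT. In WT stage A 3 of the pollen markers had no read. All 6 markers of dividing cells were lower in atcep1, with sums of 333, 264 and 180 RPKM against 568, 446 and 296 RPKM in WT. Of 10 markers of green tissue, 2 of the 9 tested were lower and 7 did not pass, with sums of 9412, 9052 and 8357 RPKM in atcep1 and 11462, 13251 and 7631 RPKM in WT.

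**Figure D2:**
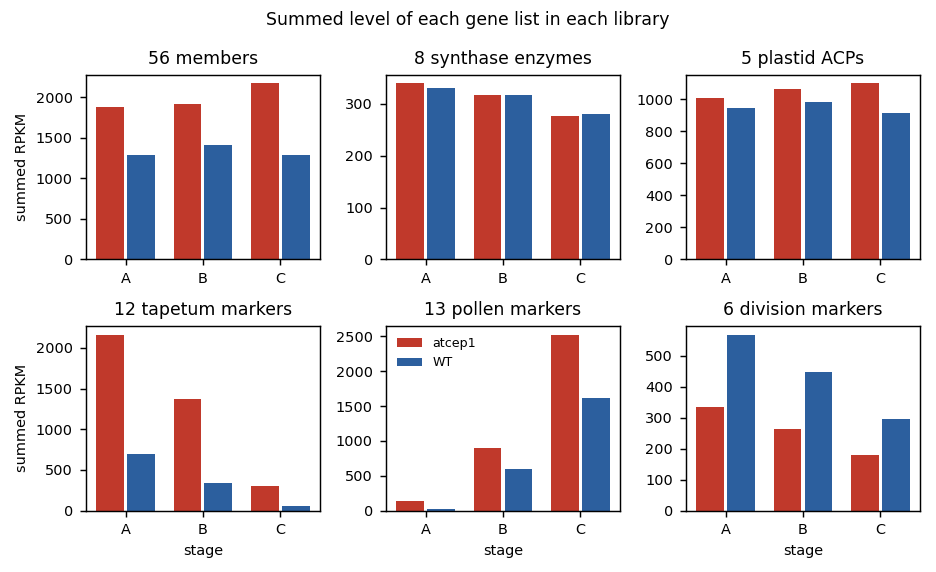
Summed RPKM of 6 gene lists in each library, with atcep1 and WT bars side by side at stages A, B and C; each bar is 1 library and each panel has its own scale. The member sum is higher in atcep1 at each stage (1879 against 1283 RPKM at stage A), the sum of the 8 synthase enzymes differs by little (340 against 331 RPKM at stage A), and the sums of tapetum and pollen markers are higher and that of dividing cells lower in atcep1.

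Most members that activate acyl chains and attach them to cutin precursors were higher in atcep1. All 7 loci of this group were tested, of which 6 were higher in atcep1 and 1 lower, with a median log2 fold change of 0.90. GPAT6 (AT2G38110, chromosome 2, 15952607 to 15955494 in TAIR10, as for all gene positions here) encodes a glycerol-3-phosphate acyltransferase that makes cutin monomers and is needed for the cuticle of floral organs. It had 144, 171 and 314 RPKM in atcep1 stages A, B and C, against 71.8, 85.0 and 81.5 RPKM in WT. The lowest atcep1 library lay above the highest WT library, and the distance was widest at stage C, where the ratio of reads per library total was 3.85 (95% exact binomial interval 3.53 to 4.20, counting error only). The fitted log2 fold change was 1.38 (SE 0.19, adjusted p = 0.0015), and it was 1.02 without stage C, where the call was kept.

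The 300 bases before the annotated start of GPAT6 and of 3 other members that were higher in atcep1 are shown as examples of windows that hold a short motif known to be recognised by plant regulators of lipid and epidermal genes. They come from the RefSeq assembly TAIR10.1 and end at the base before its gene start, on the strand of the gene. Capitals mark the motifs: GCCGCC, the GCC box of ethylene response factors; TAAATGCA or TAAATGTA, the L1 box of epidermal homeodomain factors; and the AW box CNTNGNNNNNNNCG, bound by WRINKLED1. Both strands were searched. The windows are chr2:15955753-15956052 on the minus strand for GPAT6, chr2:7050499-7050798 on the plus strand for KCS9, chr5:14767126-14767425 on the plus strand for WSD1 and chr4:16394300-16394599 on the plus strand for KCS16.
GPAT6: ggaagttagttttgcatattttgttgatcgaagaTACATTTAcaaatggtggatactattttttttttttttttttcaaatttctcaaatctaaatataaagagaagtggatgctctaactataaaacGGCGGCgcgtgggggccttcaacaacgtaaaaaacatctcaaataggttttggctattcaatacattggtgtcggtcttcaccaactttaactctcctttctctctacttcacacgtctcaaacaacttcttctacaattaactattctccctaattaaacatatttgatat
KCS9: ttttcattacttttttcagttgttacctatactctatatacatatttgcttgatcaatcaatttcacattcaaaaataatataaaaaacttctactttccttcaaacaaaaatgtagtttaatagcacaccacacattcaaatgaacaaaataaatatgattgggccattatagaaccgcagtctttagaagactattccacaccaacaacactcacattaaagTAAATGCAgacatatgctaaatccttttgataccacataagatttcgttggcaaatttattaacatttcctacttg
WSD1: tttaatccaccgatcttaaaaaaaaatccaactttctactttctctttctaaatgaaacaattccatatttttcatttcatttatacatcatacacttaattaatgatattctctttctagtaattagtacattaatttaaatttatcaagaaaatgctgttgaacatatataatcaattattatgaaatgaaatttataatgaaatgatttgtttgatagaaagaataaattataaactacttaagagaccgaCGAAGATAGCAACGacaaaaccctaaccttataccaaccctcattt
KCS16: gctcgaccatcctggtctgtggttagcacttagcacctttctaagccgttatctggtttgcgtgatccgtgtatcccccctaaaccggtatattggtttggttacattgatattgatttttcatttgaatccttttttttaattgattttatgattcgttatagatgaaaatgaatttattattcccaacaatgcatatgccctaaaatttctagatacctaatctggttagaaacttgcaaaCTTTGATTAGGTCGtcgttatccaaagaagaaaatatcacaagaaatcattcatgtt

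GPAT6 has an L1 box that starts at -266 and a GCC box at -172, counted from the gene start, and KCS9 has an L1 box at -76. WSD1 has an AW box at -46 and KCS16 has one at -57. In all, 3 of the 56 member windows held a GCC box (5.36%), beside 2.36% of 25742 windows of all genes. An L1 box of either form was in 7 (12.5%), beside 5.39%, and an AW box in 6 (10.7%), beside 11.2%. The windows of LIP1 and AT4G31050 (L1 box), AT5G08415 (GCC box) and CLO1 (AW box) overlap another annotated gene. That of AT2G15120 (L1 box) lies within its own TAIR10 span. The windows shown above overlap no annotated gene. How often windows of all genes overlap a gene was not counted. Other members with such motifs were higher, lower or not called. PRT6, with an L1 box at -242, and AT5G08415, with a GCC box at -269, were higher in atcep1, and KAS2, with an AW box, was lower. Tested members with a motif that were not called are AT1G02190 for the GCC box, LIP1 and AT4G31050 for the L1 box, and AT1G47578 and ATLIP1 for the AW box. These are matches of letters in 1 window and no measure of binding.

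GPAT4 (AT1G01610, chromosome 1, 221691 to 224340), a second acyltransferase of cutin synthesis, had 104, 115 and 134 RPKM in atcep1 and 59.2, 69.5 and 66.5 RPKM in WT. No library of one genotype reached the range of the other, and the log2 fold change was 0.90 (SE 0.10, adjusted p = 6.1e-04). Its close relative GPAT8, which acts with GPAT4 in leaves and stems, had 31.1, 30.3 and 35.6 RPKM in atcep1 against 22.1, 28.5 and 24.9 RPKM in WT. Here the groups were separate by a small margin and the log2 fold change was 0.42 (SE 0.13, adjusted p = 0.041); the call was lost without stage A, without stage C or without any 1 of the 4 libraries of these stages (adjusted p from 0.0935 to 0.198). GPAT4 and GPAT8 were named after their values were seen.

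DCR (AT5G23940, chromosome 5, 8076329 to 8079793), an acyltransferase required for cutin, was the member with the highest level. It had 447, 405 and 439 RPKM in atcep1 and 274, 282 and 215 RPKM in WT, with every atcep1 library above every WT library. The log2 fold change was 0.81 (SE 0.13, adjusted p = 0.0029). LACS2 (AT1G49430, chromosome 1, 18291043 to 18295825), a long-chain acyl-CoA synthetase of cutin synthesis, had 118, 106 and 144 RPKM in atcep1 and 58.1, 70.5 and 68.4 RPKM in WT (log2 fold change 0.95, SE 0.12, adjusted p = 0.001). LACS1 (AT2G47240, chromosome 2, 19392558 to 19397831), which activates very-long-chain acids for wax, was lower in level, at 7.54, 7.81 and 10.2 RPKM in atcep1 and 4.78, 4.82 and 3.53 RPKM in WT. Its counts were 75, 78 and 108 reads against 46, 47 and 36, and its log2 fold change was 1.02 (SE 0.23, adjusted p = 0.012). In LACS2 and LACS1 too the lowest atcep1 library exceeded the highest WT library.

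ACT1 (AT1G32200), the plastid glycerol-3-phosphate acyltransferase that starts membrane lipid synthesis rather than cutin, was the member of this group that fell. It had 7.34, 4.91 and 5.22 RPKM in atcep1 and 12.2, 11.5 and 6.75 RPKM in WT. The atcep1 stage A library lay within the WT range, and the log2 fold change was -0.73 (SE 0.22, adjusted p = 0.039). The call was lost without stage A, without stage B or without any 1 of the 4 libraries of these stages (adjusted p from 0.0879 to 0.229), and ACT1 was named after its values were seen.

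**Figure D3:**
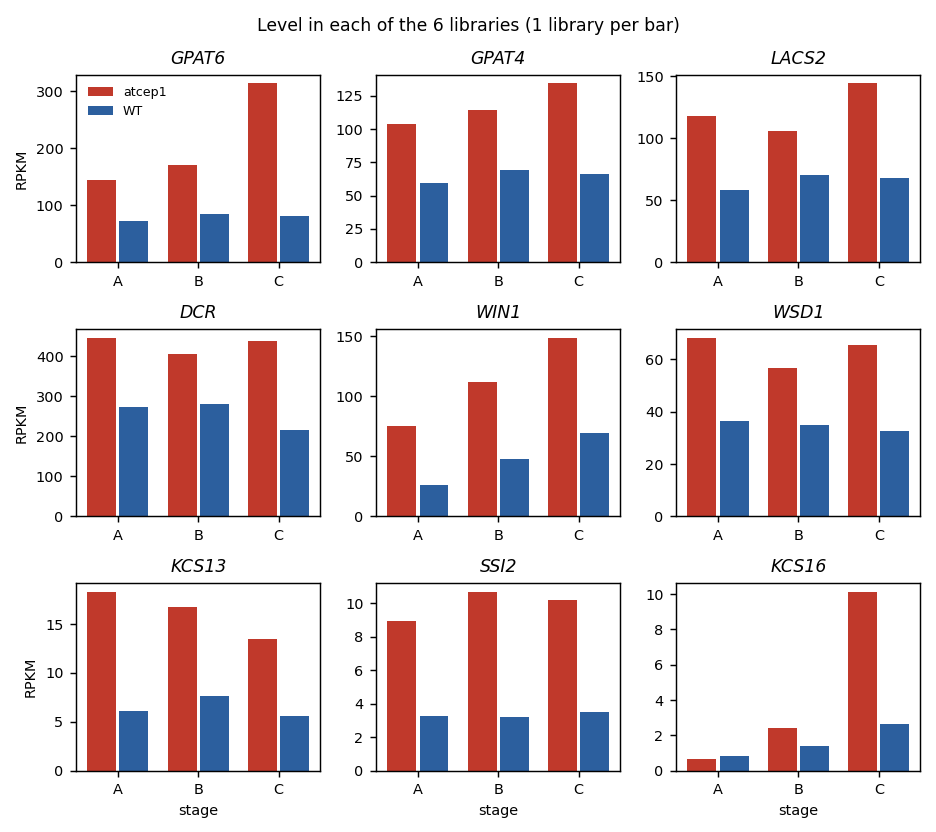
RPKM of 9 members that were higher in atcep1, in each of the 6 libraries; each bar is 1 library, red for atcep1 and blue for WT, and each panel has its own scale from 0. In 8 of the panels every red bar is taller than every blue bar; KCS16 rises above WT mainly at stage C, with 10.1 RPKM against 2.63 RPKM.

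Of the 8 loci of wax synthesis and its regulators only 3 were read deeply enough to test, and 2 of these were higher. WIN1 (AT1G15360, chromosome 1, 5283538 to 5284673) encodes a transcription factor that activates cuticle genes, GPAT4, LACS2 and other cutin genes among them. It had 75.0, 112 and 149 RPKM in atcep1 stages A, B and C, against 26.0, 47.7 and 69.4 RPKM in WT. Its level was higher at each later stage in both genotypes, and the atcep1 stage A library already exceeded the WT stage C library. The log2 fold change was 1.32 (SE 0.11, adjusted p = 1.5e-04). WSD1 (AT5G37300, chromosome 5, 14767499 to 14770249), which makes wax esters in stems, had 68.4, 56.6 and 65.6 RPKM in atcep1 and 36.3, 34.8 and 32.6 RPKM in WT (log2 fold change 0.93, SE 0.11, adjusted p = 6.7e-04). The fatty acid hydroxylase family locus AT1G02190 had 9.79, 8.85 and 9.91 RPKM in atcep1 and 8.78, 13.6 and 10.4 RPKM in WT, and did not pass (-0.13, SE 0.18, adjusted p = 0.624). The exosome subunit gene CER7, known from wax mutants, had 1 read in each atcep1 library and 2 to 3 reads in each WT library, all at or under 3 reads, and was not tested.

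Chain elongation genes showed 2 kinds of pattern. Of the 7 loci, 5 were tested and 4 were higher in atcep1, with a median log2 fold change of 1.02. KCS13 (AT2G46720, chromosome 2, 19197383 to 19200221), also known as HIC for its part in stomatal spacing, had 18.3, 16.8 and 13.5 RPKM in atcep1 and 6.11, 7.65 and 5.56 RPKM in WT. The difference was present at each stage, with the lowest atcep1 library above the highest WT library (log2 fold change 1.38, SE 0.14, adjusted p = 3.5e-04). KCS16 (AT4G34250, chromosome 4, 16394708 to 16396495), an elongase of very-long-chain acids, had 0.676, 2.42 and 10.1 RPKM in atcep1 and 0.831, 1.36 and 2.63 RPKM in WT, or 5, 18 and 80 reads against 6, 10 and 20. At stage A the genotypes had nearly the same count, and the ratio of reads at stage C was 3.85 (95% interval 2.34 to 6.64). The log2 fold change of 1.37 (SE 0.40, adjusted p = 0.035) was 0.48 without stage C or without either of its libraries (adjusted p from 0.472 to 0.497).

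KCS17, on the same chromosome as KCS16, had a like course, with near-equal counts at stage A and the widest distance at stage C. It had 2.98, 4.59 and 19.3 RPKM in atcep1 and 3.66, 3.31 and 4.93 RPKM in WT, and did not pass (log2 fold change 1.02, SE 0.40, adjusted p = 0.0925). It was named after its values were seen. KCS8 (AT2G15090, chromosome 2, 6542256 to 6543947) had 89.7, 73.4 and 59.3 RPKM in atcep1 and 55.9, 61.3 and 53.6 RPKM in WT, and the groups overlapped. Its log2 fold change was 0.42 (SE 0.11, adjusted p = 0.026), and without stage A it was 0.27, with the call lost there and without either stage A library (adjusted p from 0.209 to 0.221). KCS9 (AT2G16280, chromosome 2, 7050944 to 7052897), an elongase of wax and suberin precursors, had 35.4, 31.1 and 37.6 RPKM in atcep1 and 28.3, 26.6 and 27.6 RPKM in WT. The difference was small and the groups were separate (0.39, SE 0.11, adjusted p = 0.030), but the call was lost without any 1 stage and without any 1 library other than WT stage B (adjusted p from 0.0502 to 0.124). KCS14 and the pseudogene AT2G15120 had at most 1 read in any library.

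The desaturase members differed among themselves. Of the 10 loci of condensation, acyl-ACP activation and desaturation 8 were tested, with 2 higher and 1 lower and a median log2 fold change of 0.32. SSI2 (AT2G43710, chromosome 2, 18119956 to 18122889), the main stearoyl-ACP desaturase of leaves, had 8.98, 10.7 and 10.2 RPKM in atcep1 and 3.25, 3.20 and 3.50 RPKM in WT. These values come from 65, 78 and 79 reads against 23, 23 and 26, and the groups were far apart at each stage. The log2 fold change of 1.64 was the largest among the tested members (SE 0.20, adjusted p = 8.7e-04). FAD4 (AT4G27030, chromosome 4, 13571921 to 13573070), the desaturase of plastid phosphatidylglycerol, had 11.6, 16.1 and 19.5 RPKM in atcep1 and 4.31, 11.9 and 11.3 RPKM in WT. The atcep1 stage A library lay inside the WT range. The log2 fold change was 0.87 (SE 0.22, adjusted p = 0.020), and the call was lost when either stage A library, or both, was left out (adjusted p from 0.0643 to 0.0939).

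FAD5, the palmitoyl desaturase of plastid galactolipids, and FAD3, the linoleate desaturase outside the plastid, did not pass. FAD5 (AT3G15850, chromosome 3, 5359009 to 5361185) had 102, 120 and 85.2 RPKM in atcep1 and 79.4, 116 and 65.6 RPKM in WT (log2 fold change 0.31, SE 0.11, adjusted p = 0.058), and it passed without either or both stage B libraries (adjusted p from 0.0347 to 0.0372). FAD3 had 24.8, 20.5 and 16.6 RPKM in atcep1 and 24.3, 21.1 and 15.9 RPKM in WT, nearly the same at every stage (0.06, SE 0.13, adjusted p = 0.737). AAE15 (AT4G14070), an acyl-ACP synthetase of the plastid, had 23.9, 25.0 and 26.8 RPKM in atcep1 and 17.0, 20.8 and 26.0 RPKM in WT. It did not pass (0.32, SE 0.11, adjusted p = 0.067), but did when either or both stage C libraries were left out (0.0214 to 0.0298). AAE16, its closest relative, had 15.3, 17.2 and 19.0 RPKM in atcep1 and 14.9, 11.3 and 16.8 RPKM in WT (0.33, SE 0.14, adjusted p = 0.110). AT2G22890, described by a Kua-ubiquitin conjugating enzyme hybrid localisation domain, had 23, 32 and 18 reads in atcep1 and 36, 13 and 7 reads in WT. Its direction was thus not the same at every stage. AT1G62190, with the same description as AT2G22890, had 0, 1 and 17 reads in atcep1 and no read in WT, and was not tested.

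KAS2 (AT1G74960, chromosome 1, 28151978 to 28156259), the ketoacyl-ACP synthase that makes stearate from palmitate, was the other member that fell, and the step just before SSI2. It had 2.44, 1.91 and 2.08 RPKM in atcep1 and 3.18, 4.32 and 4.46 RPKM in WT, or 23, 18 and 21 reads against 29, 40 and 43. The groups did not overlap, and the log2 fold change was -0.82 (SE 0.26, adjusted p = 0.048). The call was lost without any 1 stage and without any 1 library other than WT stage A (adjusted p from 0.0581 to 0.220). KAS2 has 3 RefSeq transcripts and SSI2 has 2, so both levels may be too low.

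Of the 5 members of acetyl-CoA and malonyl-CoA supply 3 were tested and 1 was higher. ACLA-2 (AT1G60810, chromosome 1, 22388527 to 22391165), a subunit of the cytosolic ATP-citrate lyase that makes acetyl-CoA outside the plastid, had 53.0, 42.9 and 48.6 RPKM in atcep1 and 43.4, 36.2 and 28.8 RPKM in WT. The groups overlapped slightly, and the log2 fold change was 0.48 (SE 0.13, adjusted p = 0.031). The call was lost without stage A or C, and without the WT stage C, atcep1 stage A or atcep1 stage C library alone (adjusted p from 0.0627 to 0.0785), with a log2 fold change of 0.28 without stage C. PII (AT4G01900), a nitrogen sensor that binds the plastid acetyl-CoA carboxylase, had 79.7, 93.0 and 78.3 RPKM in atcep1 and 89.3, 78.7 and 74.3 RPKM in WT, with no call (0.10, SE 0.11, adjusted p = 0.513). ACC2 (AT1G36180), the carboxylase copy next to the near-identical ACC1, had 9.74, 14.3 and 14.2 RPKM in atcep1 and 7.52, 6.16 and 18.5 RPKM in WT, and its direction changed with the stage. ACC1, 1962 bases away, had 1 to 9 reads in each library. Reads shared by ACC1 and ACC2 would be lost from unique counts, so these levels are uncertain.

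Lipoate, the cofactor of pyruvate dehydrogenase that is built on fatty acids in mitochondria and plastids, has 5 members, of which 1 was higher and 4 did not pass. LIP1 (AT2G20860), the mitochondrial lipoate synthase, had 104, 120 and 110 RPKM in atcep1 and 103, 108 and 133 RPKM in WT (log2 fold change 0.02, SE 0.10, adjusted p = 0.911). AT5G08415 (chromosome 5, 2710817 to 2713132), the radical SAM enzyme that makes lipoate in plastids, had 25.7, 22.8 and 24.1 RPKM in atcep1 and 19.5, 18.5 and 17.0 RPKM in WT. Its groups were separate (0.45, SE 0.13, adjusted p = 0.034), but the call was lost without any 1 stage or library (adjusted p from 0.0635 to 0.131). LIP2 lies 84 bases from EMB1687, another member, so reads of these neighbours could be mixed where the transcripts extend into each other.

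Of the 7 caleosin, lipase and oxylipin loci 5 were tested and 4 were higher in atcep1, with a median log2 fold change of 0.89. PLA2A (AT2G26560, chromosome 2, 11293769 to 11295806), a patatin-like lipase induced by stress and infection, had 14.9, 11.3 and 7.27 RPKM in atcep1 and 4.06, 4.99 and 2.57 RPKM in WT. The lowest atcep1 library, that of stage C, still exceeded the highest WT library (log2 fold change 1.56, SE 0.23, adjusted p = 0.0019). JMT (AT1G19640, chromosome 1, 6788885 to 6791846), which methylates jasmonic acid, had 43.1, 36.9 and 26.4 RPKM in atcep1 and 21.2, 27.5 and 12.0 RPKM in WT (0.89, SE 0.16, adjusted p = 0.0050). RD20 (AT2G33380, chromosome 2, 14144831 to 14146471), a caleosin of lipid droplets induced by drought, had 33.2, 51.3 and 71.3 RPKM in atcep1 and 22.7, 41.6 and 39.7 RPKM in WT (0.63, SE 0.14, adjusted p = 0.014). For JMT and RD20 the groups overlapped, although atcep1 exceeded WT at each stage. The RD20 call was lost without stage A (0.0629) or without the atcep1 stage A library alone (0.0563).

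AT5G29560, a caleosin-related locus with few reads, had 2.55, 7.97 and 8.55 RPKM in atcep1 and 1.12, 4.05 and 2.49 RPKM in WT, or 7, 22 and 25 reads against 3, 11 and 7. The log2 fold change was 1.37 (SE 0.36, adjusted p = 0.023). The call was lost without stage A or C, and without the WT stage C, atcep1 stage A or atcep1 stage C library alone (adjusted p from 0.0626 to 0.112). Without stage B it could not be tested. The lipase gene ATLIP1 was lower in each atcep1 library than in any WT library, by a margin that did not pass (-0.18, SE 0.14, adjusted p = 0.363).

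Among the 7 loci with no clear role in fatty acids, 6 were tested and 1 was called. PRT6 (AT5G02310, chromosome 5, 474279 to 482783), a ubiquitin ligase of the N-degron pathway, had 26.9, 24.7 and 26.1 RPKM in atcep1 and 19.6, 16.3 and 17.9 RPKM in WT (log2 fold change 0.59, SE 0.09, adjusted p = 0.0025). VTE2, an enzyme of vitamin E synthesis, had 36.1, 37.7 and 32.3 RPKM in atcep1 and 29.1, 31.6 and 32.9 RPKM in WT and was not called (0.23, SE 0.11, adjusted p = 0.135). The small GTPase locus AT5G64813 had 35.5, 32.6 and 31.1 RPKM in atcep1 and 34.9, 33.2 and 32.3 RPKM in WT and was not called (0.03, SE 0.10, adjusted p = 0.818).

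The core pathway was read from its own lists. Most of these hold steps in the plastid. Others hold mitochondrial and lipoate genes, the cytosolic acetyl-CoA carboxylase, membrane desaturases, some of them outside the plastid, and the WRINKLED regulators. Counts over all lists therefore mix these compartments. Of the 64 loci on the pathway lists 52 were tested, with 17 higher and 4 lower in atcep1 and a median log2 fold change of 0.12. Over the 53 that are not members, 14 of the 42 tested were higher and 3 lower, with a median of 0.11. The 14 are 33.3% of those tested, beside the background of 16.0%, and the 3 are 7.14%, beside 11.5%. These 3 are accD, of the plastid, and the mitochondrial genes mtACP1 and mtACP2.

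At the entry of the pathway, 6 of 10 genes of the plastid pyruvate dehydrogenase and pyruvate kinase, which supply acetyl-CoA, were higher in atcep1 and 4 did not pass, with a median of 0.40. Their sum was 1156, 1154 and 1263 RPKM in atcep1 and 994, 1027 and 930 RPKM in WT. The DESeq2 counts for these genes were 4 higher and 0 lower. Of 8 genes of the plastid acetyl-CoA carboxylase and its inhibitors 5 were tested, and 1 was higher and 1 lower. DESeq2 called 1 higher and 0 lower among them. The biotin carrier gene BCCP2 had 127, 138 and 156 RPKM in atcep1 and 91.0, 121 and 93.0 RPKM in WT (0.53, SE 0.12, adjusted p = 0.015; without stage A or the atcep1 stage A library 0.0729 to 0.085). The plastid-encoded subunit gene accD, read here after an enrichment for polyadenylated RNA, had 10, 9 and 18 reads in atcep1 and 33, 45 and 25 reads in WT (-1.44, SE 0.37, adjusted p = 0.022; without stage A or B, or without the atcep1 stage A, atcep1 stage B or WT stage B library, 0.085 to 0.102). The carrier gene CAC1 had 6.96, 5.59 and 6.37 RPKM in atcep1 and 7.55, 7.83 and 6.74 RPKM in WT. CAC3, the other carboxyltransferase subunit, had 3.02, 2.60 and 2.75 RPKM in atcep1 and 5.27, 3.63 and 4.21 RPKM in WT; neither was called. The inhibitor gene AT1G52670 had 97.8, 91.8 and 91.1 RPKM in atcep1 and 99.4, 99.1 and 80.8 RPKM in WT, also with no call. The biotin carboxylase gene CAC2 had at most 2 reads, and the inhibitor genes AT3G56130 and AT3G15690 at most 13, in any library.

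The synthase enzymes were close to level between the genotypes. Of 8 genes 6 were tested, 1 higher and 1 lower (KAS2), and their sum was 340, 317 and 278 RPKM in atcep1 and 331, 318 and 281 RPKM in WT. DESeq2 called 0 higher and 0 lower on this list. The ketoacyl-ACP reductase gene AT1G24360, the most abundant, had 187, 169 and 146 RPKM in atcep1 and 179, 173 and 157 RPKM in WT (log2 fold change 0.03, SE 0.09). The dehydratase gene AT2G22230 had 86.3, 79.0 and 69.5 RPKM in atcep1 and 85.7, 76.7 and 63.0 RPKM in WT. The second dehydratase gene AT5G10160 had 54.9, 60.2 and 51.4 RPKM in atcep1 and 56.2, 58.1 and 49.4 RPKM in WT. The malonyl transferase gene EMB3147 had 4.84, 2.79 and 4.84 RPKM in atcep1 and 3.95, 2.88 and 5.29 RPKM in WT, and none of these 4 was called. The enoyl-ACP reductase gene MOD1 was the higher one, at 26, 23 and 26 reads in atcep1 and 14, 13 and 9 reads in WT (1.07, SE 0.30, adjusted p = 0.030), a call that was lost without any 1 stage or library (0.0506 to 0.099). KASI had 1 read in all libraries together and KAS III at most 8 in any. These are below the levels of the other synthase genes, and the part that unique counting has in this was not tested.

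Among the 5 plastid acyl carrier proteins, which hold the growing chain, ACP1 was the 1 of 4 tested that was called. It had 551, 543 and 521 RPKM in atcep1 and 434, 427 and 353 RPKM in WT (0.47, SE 0.10, adjusted p = 0.011; without stage A or the atcep1 stage A library 0.0553 to 0.063). ACP2 had 406, 456 and 530 RPKM in atcep1 and 451, 477 and 492 RPKM in WT. ACP4 had 41.9, 52.9 and 39.5 RPKM in atcep1 and 49.1, 69.7 and 56.5 RPKM in WT (-0.33, SE 0.12, adjusted p = 0.069). ACP3, a close copy of ACP2, had 5.91, 8.67 and 7.52 RPKM in atcep1 and 10.8, 10.2 and 9.17 RPKM in WT, and these 2 are uncertain because reads can be shared between them. ACP5 had at most 4 reads in any library.

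**Figure D4:**
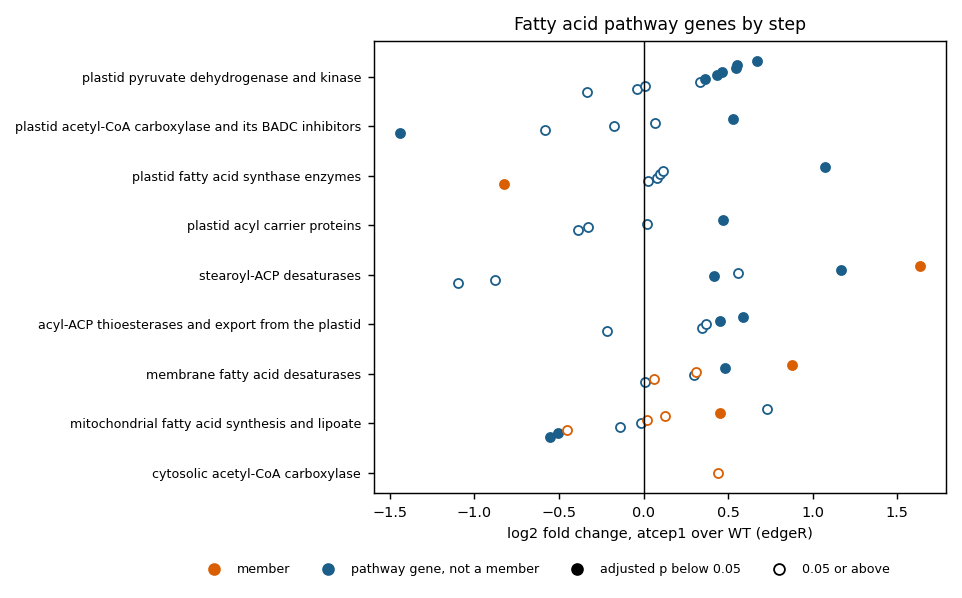
Log2 fold change of atcep1 over WT for the tested genes of the core pathway lists, 1 point per gene and 1 row per step; orange points are members, blue points are not, and filled points passed an adjusted p of 0.05. The synthase enzymes gather near 0 (median 0.09) apart from MOD1 and KAS2, while 6 of the 10 pyruvate dehydrogenase and kinase genes and 3 of the 6 tested stearoyl-ACP desaturases are filled to the right of 0.

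At the exit of the plastid 3 of the 6 tested stearoyl-ACP desaturases and 2 of the 5 genes of thioesterases and export were higher, and the others did not pass. DESeq2 gave the same counts for these lists. The desaturases that were higher are SSI2, AT5G16240 and AT3G02630. AT5G16240 had 32.8, 37.5 and 42.7 RPKM in atcep1 and 11.7, 20.8 and 20.7 RPKM in WT (1.16, SE 0.14, adjusted p = 7.7e-04). AT3G02630 had 88.6, 86.8 and 92.2 RPKM in atcep1 and 65.2, 65.0 and 78.9 RPKM in WT (0.42, SE 0.09, adjusted p = 0.011). AT3G02620, of the same family, had values on the other side, at 3.99, 5.23 and 2.38 RPKM in atcep1 and 7.25, 6.77 and 7.78 RPKM in WT. Its groups did not overlap, but it did not pass (-0.88, SE 0.29, adjusted p = 0.051). FTM1, another desaturase of the family, had 3.97, 2.06 and 1.29 RPKM in atcep1 and 16.8, 2.79 and 0.336 RPKM in WT (-1.10, SE 0.52, adjusted p = 0.150). The thioesterase gene FATB, which releases palmitate, had 126, 145 and 197 RPKM in atcep1 and 104, 110 and 139 RPKM in WT (0.45, SE 0.10, adjusted p = 0.011). LACS9, the acyl-CoA synthetase of the plastid envelope, had 68.5, 62.5 and 85.9 RPKM in atcep1 and 53.6, 45.9 and 49.8 RPKM in WT (0.59, SE 0.12, adjusted p = 0.0076). The thioesterase gene FATA (AT3G25110), which releases oleate, had 30.1, 22.8 and 21.0 RPKM in atcep1 and 31.6, 29.4 and 27.6 RPKM in WT and did not pass (-0.22, SE 0.12, adjusted p = 0.197). Of the 6 tested membrane desaturases FAD4 and FAD7 were called, both higher. DESeq2 called 1 membrane desaturase higher and 0 lower. The regulators of the WRINKLED family were too low to test, and WRI1 itself had 1 read in all libraries together.

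Of the 3 mitochondrial acyl carrier protein genes 2 were lower in atcep1 and 1 did not pass. mtACP2 had 375, 353 and 302 RPKM in atcep1 and 557, 512 and 495 RPKM in WT, with no overlap (-0.55, SE 0.09, adjusted p = 0.0032). mtACP1 had 113, 105 and 85.5 RPKM in atcep1 and 158, 146 and 141 RPKM in WT (-0.51, SE 0.10, adjusted p = 0.0063). mtACP3, at a much lower level, had 5.19, 7.51 and 4.87 RPKM in atcep1 and 4.93, 6.76 and 6.62 RPKM in WT, with overlapping groups (-0.01, SE 0.29, adjusted p = 0.979). AT3G02620, FTM1, FATA and mtACP3 were named after their values were seen. mtACP1 and mtACP2 were the 2 called falls among the 9 genes on the list of mitochondrial fatty acid synthesis and lipoate. The 1 higher gene on that list was AT5G08415, the plastid lipoate enzyme, whose call was lost without any 1 stage or library. DESeq2 called 0 higher and 2 lower there.

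Between stages, in the fit over both genotypes, the shares of members called were near those of all genes or were 0. Between stages A and B, 2 members (4.76%) were higher at stage B and 0 lower, beside backgrounds of 4.36% and 0.484% of all genes. They were WIN1 (log2 fold change of stage B over A 0.75, SE 0.14, adjusted p = 0.018) and RD20 (0.80, SE 0.18, adjusted p = 0.042). Between stages B and C, 0 members were higher at stage C and 1 (2.38%) was lower, beside 4.28% and 2.36%. This was FAD5, at -0.61 (SE 0.13, adjusted p = 0.027). At an unadjusted p below 0.05, 5 members were higher and 0 lower at stage B over A, beside 11.0% and 4.56%, and 6 were higher and 3 lower at stage C over B, beside 10.2% and 7.94%. DESeq2 called 1 member higher and 0 lower for B over A, beside 3.65% and 0.149%, and 0 in either direction for C over B, beside 2.33% and 1.37%. The members' median step was 0.10 for B over A and 0.12 for C over B, against a median genotype difference of 0.45.

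At a single stage the atcep1 library was set against its WT counterpart on the scale of log2(RPKM + 1), with no test. Among members with at least 5 RPKM in either library, 6 of 34 were at least 2-fold higher in atcep1 at stage A and 0 lower, 7 of 35 were higher and 1 lower at stage B, and 13 of 37 were higher and 0 lower at stage C, where the members past this fold include KCS17 and AT5G29560. The backgrounds were 6.23% higher and 3.25% lower at stage A, 6.64% and 4.0% at stage B, and 8.15% and 3.89% at stage C. The members' median log2 ratios were 0.41, 0.38 and 0.52 at stages A, B and C, against -0.034, -0.026 and -0.11 over all genes. WIN1, PLA2A, SSI2 and KCS13 were at least 2-fold higher at each of the 3 stages. The 1 member at least 2-fold lower was ACT1 at stage B.

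Level and isoform number were measured beside these calls. Of the 21 members with a mean level of at least 20 RPKM, 14 were higher and 0 lower in atcep1, beside 17.5% and 16.0% of the 7174 tested genes at that level. Among members with 1 RefSeq transcript 13 of 23 tested were higher and 0 lower, beside 17.8% and 11.3% of such genes. Among those with several, 8 of 19 were higher and 2 lower, beside 13.6% and 10.9%.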

How the data were processed

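RNA of whole flower buds was sequenced in 6 libraries, 1 per genotype and stage. Per the labels' protocols, RNA was enriched on oligo(dT) beads and copied from random hexamers, and no strand-marking kit is described. The authors deposited counts of uniquely mapped reads per transcript model and RPKM values, per the file headers; both were summed here over the models of a locus (30088 models, 25964 loci). The submitters' processing notes name TAIR 10; the sources used here do not give the aligner or the counter. Intervals cover counting error only.

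Genotype and stage steps were tested with edgeR 4.0.16 in R 4.3.3 (TMM, filterByExpr, stage and genotype as additive terms, quasi-likelihood F test, 2 residual degrees of freedom, 16114 genes), with Benjamini-Hochberg adjustment over all genes. Alternatives were DESeq2 1.42.0, limma 3.58.1 on log2 RPKM, other scalings and filters, and leaving out libraries. The fit was also run on simulated counts with 200 changed genes, the same dispersion for all genes and no stage effect. This setting is simpler than these data, so the run was a check of the code only. Within a stage, log2((atcep1 RPKM + 1)/(WT RPKM + 1)) was described without a test, as 2-fold where the higher RPKM was at least 5; this understates the change of low genes.

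Members, roles and lists were chosen with earlier results of these data known. Values per library are given, in each role, for up to 3 called members with the largest fold change and the 2 with the highest mean RPKM, for the synthase, carboxylase and acyl carrier lists, and for called stage steps. Other genes that are named were chosen after their values were seen. Promoter windows follow the gene starts of RefSeq TAIR10.1, in which 25743 loci were matched. Of these, 25736 overlap their TAIR10 span in the files.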

Additional observations from a re-analysis of the deposited data

Results flagged for a closer look

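With reads scaled by library totals, effects in opposite directions were seen in 3 members, each from 1 library against 1 library. The differences themselves were not tested, since no genotype has a second library at a stage. For ACC2 the ratio of reads of atcep1 over WT stood above 1 in stage A buds, with 1.33 (1.12 to 1.60, the 95% interval), and in stage B buds, with 2.34 (1.96 to 2.80). It was 0.772 (0.681 to 0.874) in stage C buds. On the log2 scale stage A differed from stage C by 0.791 and stage B from stage C by 1.60. Reads that ACC2 shares with ACC1 are not in these counts.

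For LACS2 the change from stage A to B went in opposite directions in the genotypes when reads were scaled by library totals alone. The ratio of stage B over A was 0.898 (0.824 to 0.978) in atcep1 and 1.21 (1.08 to 1.36) in WT, a log2 difference of 0.435 (WT over atcep1). The tests used TMM factors as well, which were 1.0268 for atcep1 stage A and 0.9907 for atcep1 stage B. With these factors the atcep1 interval would include 1, so a fall of LACS2 in atcep1 depends on the scaling. For DCR the ratio of stage C over B was 1.08 (1.03 to 1.14) in atcep1 and 0.763 (0.716 to 0.814) in WT, a log2 difference of 0.505 (atcep1 over WT). LACS2 and DCR were above WT at each stage in atcep1. These intervals hold counting error only, so differences between buds or preparations of 1 group are not in them.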

How the results depend on the processing

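The count of 21 higher members was between 14 and 22 when a stage or library was left out. It was 13 with DESeq2, 7 without the stage term and 15 to 21 under the other alternatives. When all 81 loci with the term were kept, 39 of the 63 tested were higher. Over all genes the higher count moved too, from 2573 to between 1583 and 2728 in leave-one-out fits. It was 1551 with DESeq2, 296 without the stage term and 1835 to 2717 under the other alternatives. The lower count over all genes, 1859 in the main fit, was 732 with DESeq2 and 199 without the stage term. The 2 lower members became 0 with DESeq2, with limma on log2(RPKM + 0.1) and without the stage term, 1 with limma on log2(RPKM + 1) and with the most-read model per locus, and 0 to 1 in leave-one-out fits. The 2 members called between stages A and B became 1 with DESeq2, both limma fits and the most-read model, and 0 to 6 in leave-one-out fits. The 1 member called between B and C became 0 with DESeq2 and limma on log2(RPKM + 0.1), 2 with DESeq2 size factors, library totals or the most-read model, 4 without the filter, and 2 to 5 in leave-one-out fits. With a pseudocount of 5 RPKM, the members at least 2-fold higher numbered 3 at stage A, 1 at stage B and 5 at stage C, and 0 were lower at stage B. The causes were not tested. Of the 23 calls for genotype 7 were made under all alternatives. The labels give no replicate numbers that genotypes share, so libraries were paired by stage only, through the stage term. KAS2, MOD1 and accD had fewer than 50 reads in every library, and the part of depth in their lost calls was not tested.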
